A study of Homo sapiens with 8 samples.

Results

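HIF subunits and oxygen sensors were followed as a set of 9 human genes, chosen by name: the transcription factor subunits HIF1A, EPAS1, HIF3A and ARNT, the oxygen-dependent hydroxylases EGLN1, EGLN2, EGLN3 and HIF1AN, and the ubiquitin ligase subunit VHL. The platform annotation gave 8 of these 9 genes at least 1 probe set with a single gene symbol, 35 probe sets in all, among 18132 such genes and 49395 probe sets on the array. EGLN2 was listed on 2 probe sets, both shared with the readthrough gene RAB4B-EGLN2, so no value was assigned to it. RNA came from Hep3B and Huh7.5.1, established cell lines of human hepatocellular carcinoma. It was taken 48 h after adding the solvent DMSO or, for Huh7.5.1, 10 μM CU27, a compound that the sample titles give only by this code name. The 3 groups used were Huh7.5.1 with DMSO, Huh7.5.1 with CU27 and Hep3B with DMSO, each of 2 arrays that the labels call biological replicates. The medium was DMEM or MEM with 10% serum, and the labels do not say which line had which. The design asks which transcripts CU27 alters in liver cancer cells, and the untreated groups also allow the lines to be compared.

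HIF is a transcription factor made of an oxygen-labile alpha subunit (HIF1A, EPAS1 or HIF3A) and the stable partner ARNT. When oxygen is present, the EGLN prolyl hydroxylases modify the alpha subunit, VHL binds the modified form and the protein is degraded, while HIF1AN hydroxylates an asparagine that the coactivators need free. EGLN1 and EGLN3 are themselves HIF target genes in many cells, so the pathway feeds back on its sensors. Control of the alpha subunits is largely at the protein level, and arrays measure only RNA.

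The Hep3B columns labelled CU27 were left out. At all 49395 probe sets they were linear functions of the 2 Hep3B DMSO columns to a tolerance of 1e-06. Within the groups used, replicate arrays had Pearson correlations of 0.991 to 0.994 over probe sets. Array medians were 5.82 and 5.85 on the log2 scale in Hep3B and 6.23 to 6.27 in Huh7.5.1, and the median tested gene was 0.22 higher in Huh7.5.1. RNA integrity, read as the gap between the 3′ and the 5′ ACTB control probe set, moved with the line: this gap was 1.60 and 2.28 in Hep3B and 0.94 to 1.21 in Huh7.5.1. Its part in the differences between lines was not tested. Of 10 hepatocyte markers 9 were on the array and all 9 reached the floor, a log2 signal of 6.11 that is the 50th percentile of all signals and below which no fold is given. Their summed signals, set mostly by the brightest genes, were 16.1 to 16.7 on the log2 scale over the 6 arrays. With CU27 all 9 had values below 0 and 4 fell, against 12.1% of all tested genes. Between lines 5 were higher in Huh7.5.1, led by AFP at 3.23 ± 0.14, and 2 lower, led by TF at -1.05 ± 0.09. Of all tested genes 41% were higher in Huh7.5.1 and 22.9% lower. Of 6 endothelial markers, relevant because EPAS1 is abundant in endothelium, PECAM1, CDH5, VWF, TEK and CLDN5 lay below the floor in every group, and KDR reached it only in Huh7.5.1 with DMSO, at 6.17. Of 6 fibroblast markers COL1A1, COL1A2, COL3A1 and DCN lay below the floor in every group, PDGFRB was at 6.45 to 6.63, and LUM reached the floor only in Hep3B, at 6.15. The leukocyte markers PTPRC and CD3E lay below the floor, and the summed leukocyte list was 8.77 to 9.11 in Hep3B and 11.1 to 11.9 in Huh7.5.1. Its members went different ways: LYZ had 4.12 ± 0.29 between lines and -0.84 ± 0.29 with CU27, CD14 -1.89 ± 0.18 and -0.69 ± 0.18, and CD68 -0.30 ± 0.20 and 2.25 ± 0.20. In Huh7.5.1 CD14 lay below the floor in both groups, at 4.71 with DMSO and 4.02 with CU27. Against the floor CD14 was at least 1.41-fold higher in Hep3B. The part of these markers in the results was not tested.

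Promoter sequence was matched for the members through RefSeq (GRCh38.p14). It is shown for EGLN1 and ARNT, the members with probe sets that rose in CU27-treated cells, because HIF binds the core letters ACGTG or GCGTG. The 250 bases before the start of EGLN1 (chr1:231422288-231422537, minus strand) held 1 ACGTG, in capitals, whose first base lay 13 bases before the start. The 250 bases before ARNT (chr1:150876600-150876849, minus strand) held neither core on either strand.
EGLN1: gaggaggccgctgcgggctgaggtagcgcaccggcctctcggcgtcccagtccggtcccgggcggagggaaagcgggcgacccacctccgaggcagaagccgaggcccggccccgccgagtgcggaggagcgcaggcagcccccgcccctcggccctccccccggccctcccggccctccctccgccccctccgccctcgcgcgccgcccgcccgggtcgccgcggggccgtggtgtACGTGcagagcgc
ARNT: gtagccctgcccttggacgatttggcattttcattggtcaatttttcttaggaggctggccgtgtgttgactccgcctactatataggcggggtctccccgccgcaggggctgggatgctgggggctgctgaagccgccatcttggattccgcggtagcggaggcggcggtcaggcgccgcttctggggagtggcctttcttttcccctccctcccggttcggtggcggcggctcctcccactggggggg
Shorter stretches show the GCGTG before the first start of HIF1A (chr14:61695299-61695323, plus strand) and the one before EPAS1 (chr2:46297280-46297304, plus strand), again in capitals.
HIF1A: gctgagagcgGCGTGggctggggtg
EPAS1: gcctgccggcGCGTGcccgcccaca
Of 12 windows found for 8 of the 9 genes, all but VHL, 5 held either core on either strand. These windows were the ones before EGLN1, EPAS1 and the first starts of HIF1A, EGLN2 and HIF3A. The share was 41.7%, against 43.2% of all 35116 RefSeq windows of this length, a like share. The ACGTG core alone was in 18.5% of all windows and the GCGTG core in 32.2%. A match describes letters and was not tested as a binding site.

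In Huh7.5.1 cells CU27 raised EGLN1, the main oxygen sensor, and lowered VHL, while no alpha subunit passed the test. Of the 8 members tested, 1 rose and 1 fell (limma, adjusted p threshold 0.05, here named a call). Over all 11383 tested genes 24.7% were called, 12.6% upward and 12.1% downward, so 2 of 8 is close to the background and says nothing about the set as a whole. CU27 and DMSO arrays did not overlap for 6 of the 8 genes, against 63.8% of all tested genes. The median change of the members was -0.071, against 0.015 for all tested genes. A change of 1 on this log2 scale is a 2-fold change, and each difference is given ± its SE from limma. In bulk RNA, fewer cells with a transcript and less of it per cell cannot be told apart.

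**Figure D1:**
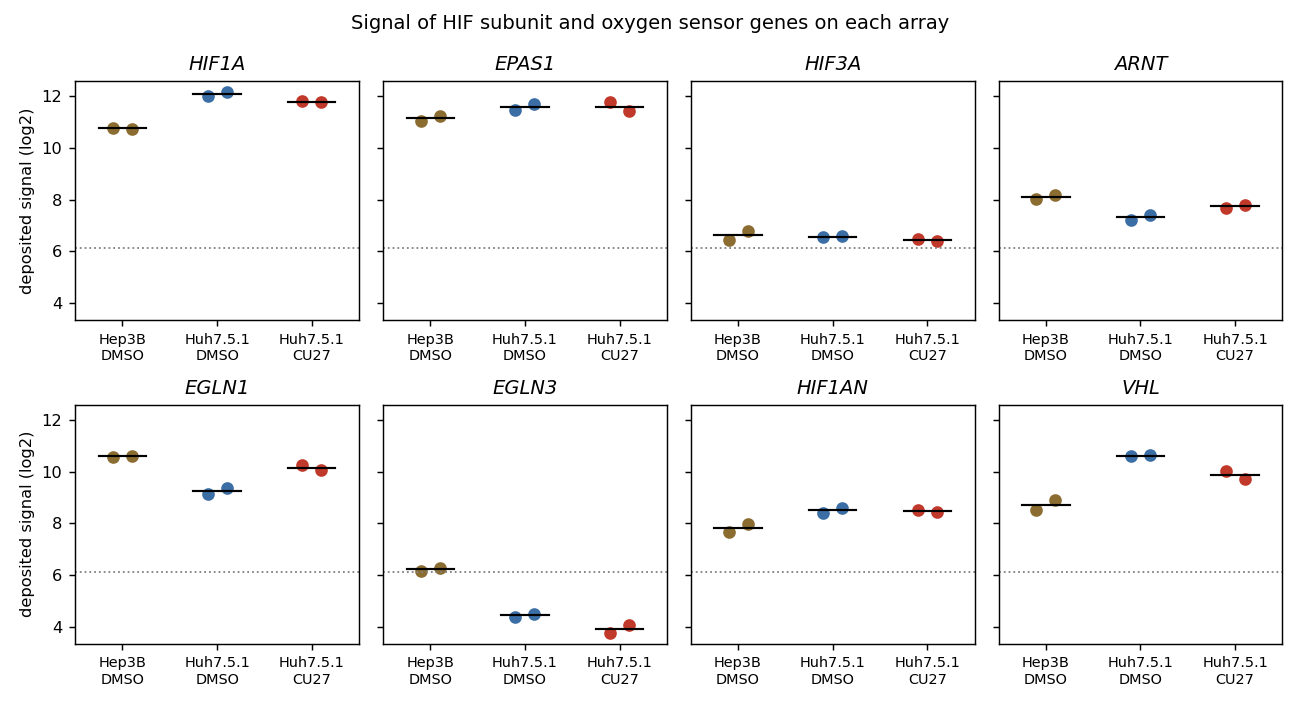
Deposited log2 signal of the probe set used for each gene, with 1 point per array, a black line at each group mean of 2 arrays and a dotted line at the floor of 6.11. EGLN1 was higher on both CU27 arrays than on both Huh7.5.1 DMSO arrays, VHL was lower, and EGLN3 lay below the floor on all 4 Huh7.5.1 arrays.

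EGLN1 (also called PHD2), the hydroxylase that sets the alpha subunits' lifetime in most cells, rose with CU27. Its signals were 9.13 and 9.37 on the DMSO arrays of Huh7.5.1 and 10.24 and 10.08 on the CU27 arrays. The groups did not overlap. The rise was 0.91 ± 0.13 in log2 units with n = 2 arrays on each side (limma adjusted p = 0.00242), or 1.88-fold, and 3.76% of all tested genes rose at least as far. Both other EGLN1 probe sets rose further. The first had DMSO signals of 7.41 and 7.57 and CU27 signals of 8.93 and 8.94, a rise of 1.44 ± 0.15 (limma adjusted p = 0.0013 over all probe sets). The second went from 7.25 and 7.24 to 8.91 and 9.04, a rise of 1.73 ± 0.15. The brightest of the 3 probe sets thus gave the smallest rise. All 3 carry the suffix _s_at or _x_at, which marks probes that may also match other transcripts, so a setting without such probe sets gives no EGLN1 value. The call held in each of the 15 other settings that could test EGLN1, with adjusted p from 0.000576 to 0.0185 and a change from 0.80 to 1.36.

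EGLN3 (PHD3), a related hydroxylase and in many cells a strongly hypoxia-induced gene, did not rise with EGLN1. It read 4.39 and 4.50 on the DMSO arrays of Huh7.5.1 and 3.76 and 4.07 on the CU27 arrays. All 4 arrays were below the floor of 6.11, so no fold is given. The measured difference was -0.53 ± 0.19 (limma adjusted p = 0.0723) and the 2 further probe sets, also below the floor, had -0.22 and 0.11. Without the floor the adjusted p was 0.0466, with a floor at the 25th percentile 0.0444 and without an intensity trend 0.0411, over a range of 0.0411 to 0.262. EGLN3 entered the test only through its level in Hep3B. The difference in response between EGLN1 and EGLN3 was not tested.

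HIF1AN (FIH), the asparaginyl hydroxylase that blocks coactivator binding, did not pass the test. The probe set used read 8.41 and 8.61 in DMSO and 8.50 and 8.46 in CU27, with overlapping groups and a difference of -0.030 ± 0.16 (95% interval -0.40 to 0.34, limma adjusted p = 0.921). A second probe set read 8.37 and 8.49 in DMSO and 7.97 and 7.95 in CU27, a difference of -0.47 ± 0.16 (limma adjusted p = 0.0617 over all probe sets). The third had a value of -0.27 ± 0.17. The interval does not show that HIF1AN was unaffected.

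VHL, which recognises hydroxylated alpha subunits for ubiquitylation, fell with CU27. It read 10.61 and 10.65 with DMSO and 10.01 and 9.73 with CU27, so the CU27 arrays were both lower and more spread out. The gene fell by 0.76 ± 0.16 (limma adjusted p = 0.0114), or 1.69-fold, and 6.22% of all tested genes fell at least as far. Its other probe set went from 9.97 and 9.87 to 9.26 and 8.85 and fell by 0.86 ± 0.18 (limma adjusted p = 0.012 over all probe sets). Dropping DMSO replicate 1 ended the call (adjusted p = 0.0509), as did dropping DMSO replicate 2 (0.081) or CU27 replicate 2 (0.0644), while the change stayed between -0.90 and -0.62 over all 16 other settings, with adjusted p from 0.00236 to 0.081.

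Among the alpha subunits, HIF1A was measured by 8 probe sets, each reaching the floor. The probe set used read 12.00 and 12.17 with DMSO and 11.83 and 11.76 with CU27. The groups did not overlap, yet the difference of -0.29 ± 0.10 did not pass the test (limma adjusted p = 0.0599). All 8 probe sets had values below 0, from -0.32 to -0.22, and 0 of 8 passed the test over all probe sets. They share the target gene, so they are not 8 independent readings. EPAS1 (HIF-2 alpha), the alpha subunit that drives erythropoietin in many tissues, read 11.47 and 11.70 in DMSO and 11.77 and 11.43 in CU27. Its groups overlapped, with a difference of 0.018 ± 0.14 (95% interval -0.30 to 0.34, limma adjusted p = 0.947), and its other probe set had -0.038 ± 0.23. HIF3A, whose shorter isoforms can restrain HIF, reached the floor on 1 of 9 probe sets. That probe set read 6.54 and 6.57 in DMSO and 6.48 and 6.42 in CU27, a difference of -0.11 ± 0.17 (limma adjusted p = 0.684). Signals of the other 8 HIF3A probe sets lay between 2.45 and 6.02 over the 6 arrays, and 2 of them held equal values on every array, so they count as a single reading.

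ARNT (HIF-1 beta), the shared partner of the alpha subunits, gave a reading that depended on the probe set. The brightest, which stands for the gene here, read 7.22 and 7.40 in DMSO and 7.69 and 7.79 in CU27. Its difference of 0.43 ± 0.15 did not pass the test (limma adjusted p = 0.0691). Of 5 ARNT probe sets, all reaching the floor and all with CU27 arrays above both DMSO arrays, 2 rose in the test over all probe sets. One went from 6.98 and 6.58 to 7.91 and 7.80, a rise of 1.07 ± 0.18 (limma adjusted p = 0.0058). The second went from 6.49 and 6.23 to 7.24 and 7.38, a rise of 0.95 ± 0.18 (limma adjusted p = 0.0084). The remaining probe sets had values of 0.61 ± 0.21 and 0.43 ± 0.20. With the mean of all 5, ARNT rose by 0.70 ± 0.13 (limma adjusted p = 0.00706, range 0.00706 to 0.303 over settings).

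**Figure D2:**
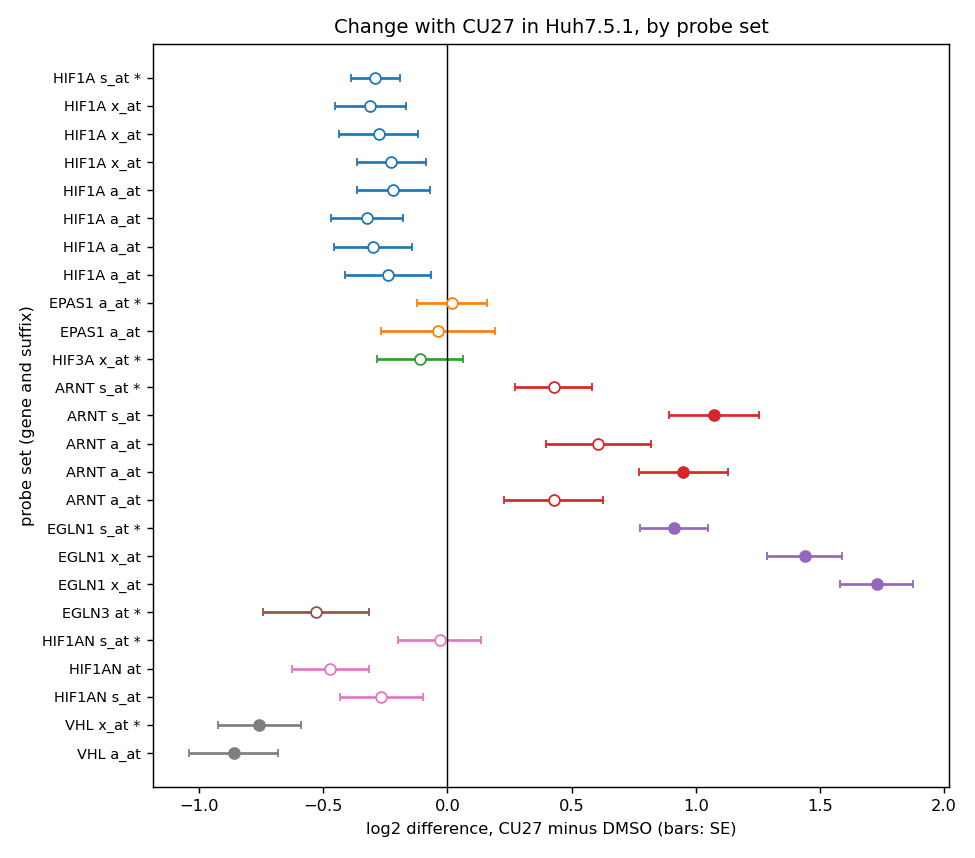
Log2 difference between CU27 and DMSO in Huh7.5.1 for each of the 25 member probe sets that reached the floor, with bars of 1 SE (2 arrays in each group). Filled points passed the limma test over all 27836 tested probe sets and the asterisk marks the probe set used for the gene. All EGLN1 and ARNT points lie above 0, all HIF1A and VHL points below it.

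Over the 25 probe sets of the members that reached the floor, 5 rose and 2 fell with CU27. Among all tested probe sets 10.4% rose and 11.3% fell, or 21.7% together. The 5 that rose were the 3 of EGLN1 and 2 of ARNT, and the 2 that fell were those of VHL.

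**Figure D3:**
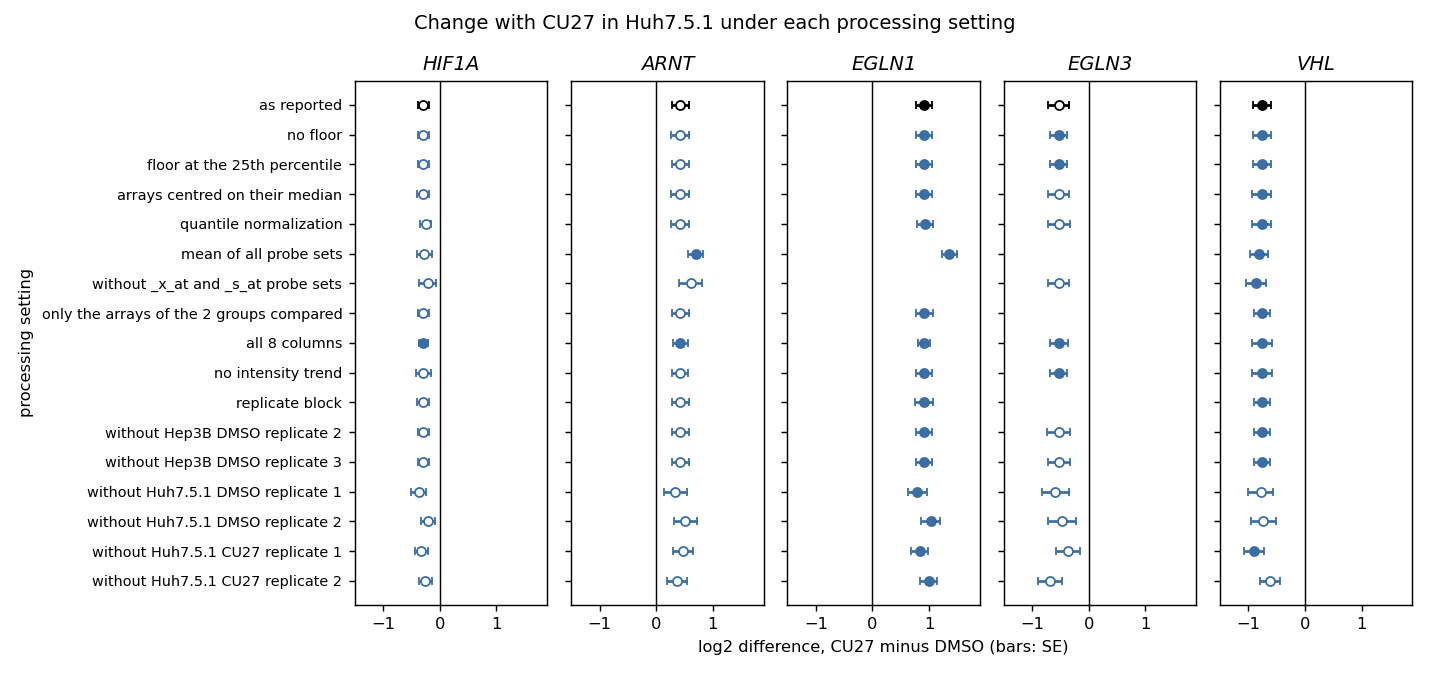
Log2 difference between CU27 and DMSO in Huh7.5.1 for 5 members under each processing setting, with bars of 1 SE and filled points where the limma adjusted p passed 0.05. EGLN1 is filled in every setting that tests it, VHL is open without either DMSO array or CU27 replicate 2, and ARNT is filled with the mean of its probe sets and with all 8 columns.

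The proteins that work with VHL showed 0 calls by limma in CU27-treated cells, against 24.7% of all tested genes. Of 8 listed genes 7 were tested, and 1 had an unadjusted p under 0.05, the cullin CUL2 at 0.46 ± 0.16 (limma adjusted p = 0.0628). The adaptors ELOB and ELOC had 0.18 ± 0.10 and -0.19 ± 0.11 and the RING subunit RBX1 -0.17 ± 0.14. The list median was 0.017, against 0.015 for all tested genes. Among 20 tested coactivators, partners and modifiers of HIF, 2 rose and 1 fell, with a median of 0.020. Of all tested genes 12.6% rose and 12.1% fell. SIAH2, a ubiquitin ligase that targets EGLN hydroxylases, rose by 0.49 ± 0.12 (limma adjusted p = 0.0198) and PKM, a pyruvate kinase whose M2 form binds HIF1A, by 0.87 ± 0.22. The chromatin ATPase RUVBL1 fell by 1.03 ± 0.18.

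Oxygen sensors use 2-oxoglutarate and release succinate, and enzymes that handle these acids formed another list. Of 17 tested, 1 rose and 3 fell, near the share called over all tested genes, 24.7%, with a median of 0.031. The succinate dehydrogenase subunit SDHA rose by 0.42 ± 0.12, and the isocitrate dehydrogenases IDH3A and IDH1 fell by 0.55 ± 0.15 and 0.43 ± 0.12. D2HGDH, which oxidises 2-hydroxyglutarate, was the third that passed the test downward, but its group means in Huh7.5.1, 5.37 and 4.81, were both below the floor. Other prolyl and lysyl hydroxylases, mostly collagen-modifying enzymes with the transmembrane HIF hydroxylase P4HTM among them, share the EGLN chemistry. Of 10 tested, 5 rose and 0 fell, against 12.6% and 12.1% of all tested genes, with a median of 0.54. Like the other lists, this one was chosen with earlier results of these data known and is not independent evidence. P4HA2, a collagen prolyl hydroxylase, rose by 1.87 ± 0.18 (limma adjusted p = 0.000658), the lysyl hydroxylase PLOD2 by 1.16 ± 0.13 and the prolyl hydroxylase P3H2 by 0.68 ± 0.16. A second P3H2 probe set had only 0.12.

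Genes that HIF is known to activate were mostly higher in CU27-treated cells. Outside the 9 members, 28 direct HIF targets were tested, of which 21 rose and 2 fell, with a median of 1.01. Of all tested genes 12.6% rose and 12.1% fell. The list was drawn up with hypoxia genes already known to be high in these data and is not independent evidence, and it shares P4HA1 with the other hydroxylases. By smallest p the leaders were the glycolytic aldolase ALDOC, which rose by 2.20 ± 0.15, the ankyrin repeat gene ANKRD37, and PFKFB4, an enzyme that tunes glycolytic flux. The DMSO means of ANKRD37 and PFKFB4, 5.53 and 5.79, lay below the floor, so against the floor ANKRD37 was at least 2.83-fold higher with CU27 and PFKFB4 at least 7.71-fold higher. A second PFKFB4 probe set had 1.28 and the 5 ALDOC probe sets 1.00 to 2.73. STC2, a secreted glycoprotein, fell by 1.07 ± 0.15 and DDIT4, an mTORC1 inhibitor, by 0.91 ± 0.13. Of 4 tested genes said to depend more on EPAS1, 0 passed the test by limma, and 1, CCND1, had an unadjusted p under 0.05. They were CCND1 at -0.50 ± 0.18, SLC11A2 at 0.33 ± 0.17, VLDLR at 0.11 ± 0.16 and EPO at 0.11 ± 0.19, and EPO lay below the floor in both Huh7.5.1 groups. VLDLR and EPO are also among the direct targets counted above.

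**Figure D4:**
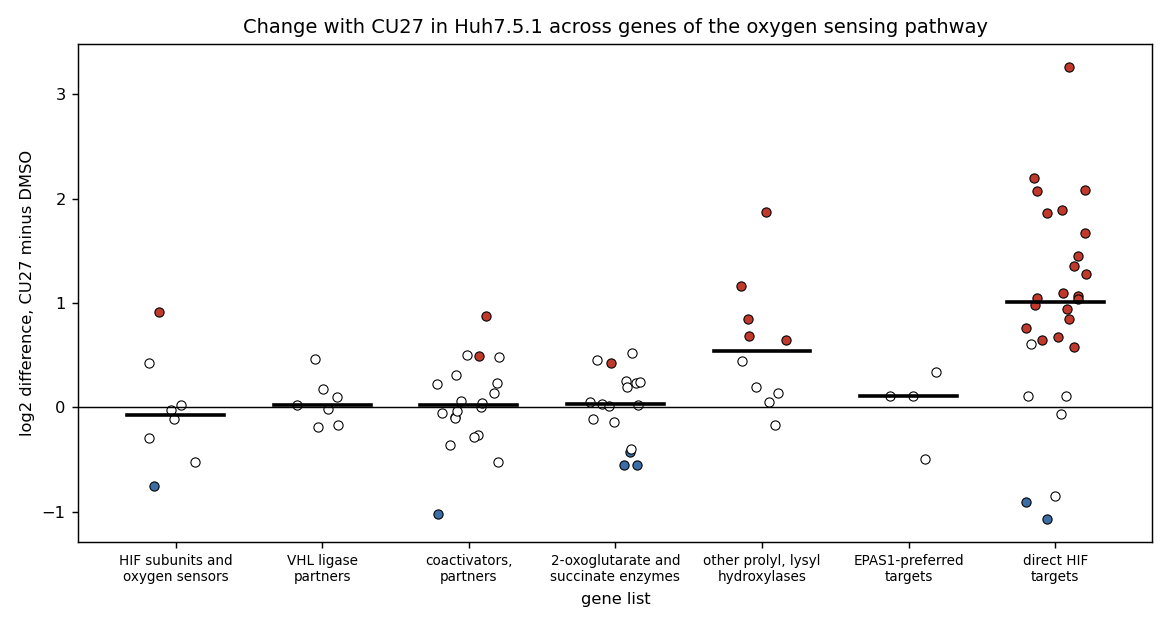
Log2 difference between CU27 and DMSO in Huh7.5.1 for each tested gene of 7 lists, with red points for genes that rose, blue for genes that fell (limma adjusted p threshold 0.05), open points for the rest and a bar at each list's median. Direct HIF targets, with the 9 members left out, have a median of 1.01, a list drawn up with genes already known to be high in these data, so its height beside the other lists was set by that choice. The VHL ligase partners and the coactivators have medians of 0.017 and 0.020. Besides the direct targets, EPO and VLDLR are also drawn among the EPAS1-preferred targets and P4HA1 among the other hydroxylases.

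Between the lines in DMSO, HIF1A and VHL were higher in Huh7.5.1 and the sensor EGLN1 was higher in Hep3B, on the deposited scale and with centred arrays. On the probe sets used, HIF1AN and EPAS1 were higher in Huh7.5.1 on the deposited scale only, and ARNT depended on the probe set. This comparison shares the Huh7.5.1 DMSO arrays with the CU27 comparison. Of 8 members tested, 4 were higher in Huh7.5.1 and 3 lower (limma, adjusted p threshold 0.05), EGLN3 among the latter, which was tested only through the group where it is high, and 7 did not overlap between lines. The background was high, with 41% of all tested genes higher, 22.9% lower, 64% called in all and 84.8% not overlapping. With each array centred on its median the split of all tested genes turned to 23.2% higher and 40.8% lower, and that of the members to 2 higher and 4 lower, so directions near 0 depend on the scaling.

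VHL had the largest positive difference between lines among the members. It read 8.52 and 8.89 in Hep3B and 10.61 and 10.65 in Huh7.5.1, with no overlap. The difference was 1.93 ± 0.16 with n = 2 arrays on each side (limma adjusted p = 1.41e-05), or 3.80-fold, and 1.51 with centred arrays. Its other probe set had 1.84 ± 0.18. HIF1A read 10.77 and 10.74 in Hep3B and 12.00 and 12.17 in Huh7.5.1, a difference of 1.33 ± 0.10 (limma adjusted p = 6.01e-06), or 0.91 with centred arrays. All 8 of its probe sets passed the test, from 0.94 to 1.41.

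EGLN1 and the probe set used for EGLN3 ran the other way. EGLN1 read 10.59 and 10.63 in Hep3B, against 9.13 and 9.37 in Huh7.5.1, a difference of -1.36 ± 0.13 (limma adjusted p = 3.39e-05). Its other probe sets had -1.67 ± 0.15 and -1.74 ± 0.15. In order of level, EGLN1 was lowest in Huh7.5.1 with DMSO, next in Huh7.5.1 with CU27 and highest in Hep3B. On the brightest probe set the means of the last pair were 10.16 and 10.61 and their arrays did not overlap, while on the third probe set the CU27 arrays, at 8.91 and 9.04, overlapped the Hep3B arrays, at 8.93 and 9.05. That pair of groups was not tested. EGLN3 read 6.17 and 6.26 in Hep3B and 4.39 and 4.50 in Huh7.5.1, with a measured difference of -1.77 ± 0.19 (limma adjusted p = 5.44e-05). Its level in Hep3B was just above the floor, so against the floor it was at least 1.08-fold higher there. A second probe set, below the floor throughout, had -1.86, and the third, also below it, 0.65.

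On the probe sets used, HIF1AN and EPAS1 were higher in Huh7.5.1 by smaller steps, which depended on the scaling. HIF1AN read 7.65 and 7.96 in Hep3B and 8.41 and 8.61 in Huh7.5.1, a difference of 0.70 ± 0.16 (limma adjusted p = 0.00445). With centred arrays it was 0.29 (adjusted p = 0.164, all settings 0.000269 to 0.164). The other HIF1AN probe sets had 1.11 ± 0.16 and 0.76 ± 0.17 on the deposited scale. EPAS1 read 11.06 and 11.25 in Hep3B, against 11.47 and 11.70 in Huh7.5.1, a difference of 0.43 ± 0.14 (limma adjusted p = 0.0232). With centred arrays it was 0.015 (adjusted p = 0.932, all settings 0.00277 to 0.932). Dropping replicate 2 of Hep3B (adjusted p = 0.154) or of Huh7.5.1 DMSO (0.155) also ended the call, as did fitting no intensity trend (0.0528). Its other probe set, dimmer, had 1.27 ± 0.23. HIF3A read 6.45 and 6.78 in Hep3B, a range that held both Huh7.5.1 DMSO arrays, and did not pass the test at -0.057 ± 0.17 (limma adjusted p = 0.78), but did with centred arrays at -0.47 (adjusted p = 0.0355).

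ARNT was again split by probe set, and here the probe sets pointed in opposite directions. The one used read 8.02 and 8.18 in Hep3B and 7.22 and 7.40 in Huh7.5.1, a difference of -0.79 ± 0.15 (limma adjusted p = 0.00164). A second gave -0.87 ± 0.21. Another read 4.48 and 4.91 in Hep3B, below the floor, and 6.54 and 6.72 in Huh7.5.1, a difference of 1.93 ± 0.20 (limma adjusted p = 6.34e-05 over all probe sets). The last pair had -0.071 ± 0.18 and 0.13 ± 0.18 and did not pass the test. With the mean of all 5 probe sets the difference was 0.066 (adjusted p = 0.673), so no direction is given for ARNT between lines beyond each probe set's own.

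**Figure D5:**
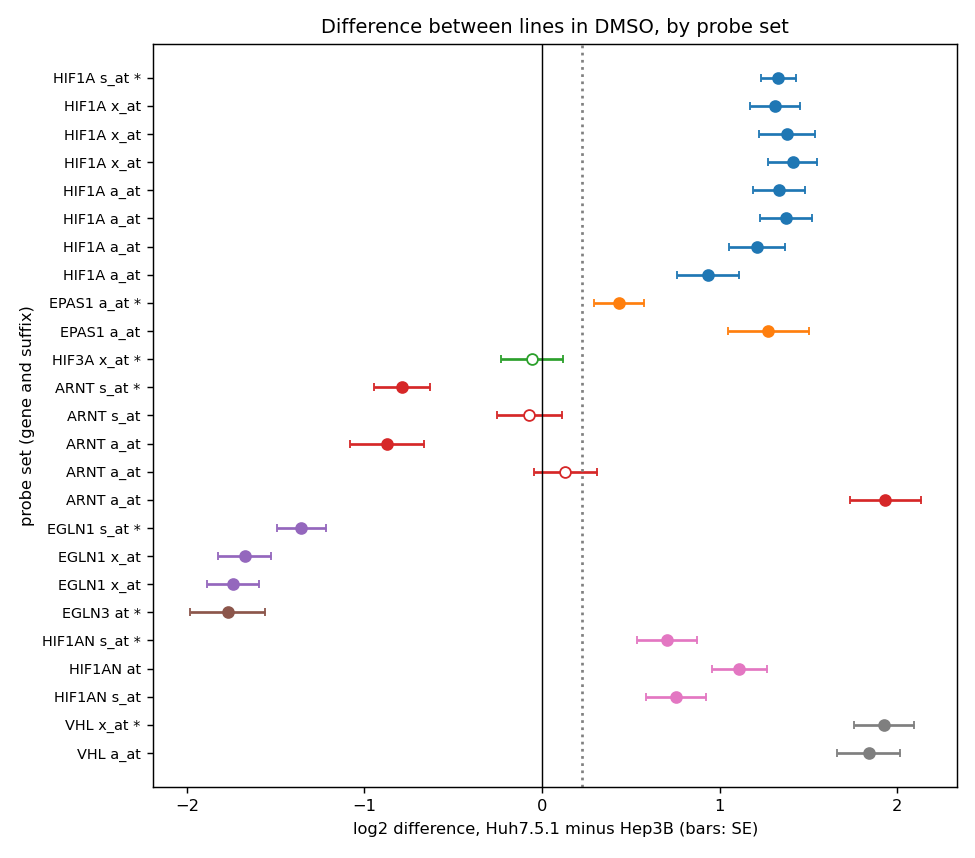
Log2 difference between Huh7.5.1 and Hep3B in DMSO for the 25 member probe sets that reached the floor, with bars of 1 SE (2 arrays in each group), filled points for those past the limma test and a dotted line at 0.22, the median of all tested genes. HIF1A and VHL probe sets lie together above the dotted line and EGLN1 below 0, while the 5 ARNT probe sets run from -0.87 to 1.93.

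Over probe sets, 16 of the 25 were higher in Huh7.5.1 and 6 lower. Among all tested probe sets 44.8% were higher and 19.4% lower, or 64.2% together. Over all tested genes the shares were 41% higher and 22.9% lower, or 64% together. Of the VHL ligase partners, 2 of 7 were higher in Huh7.5.1 and 2 lower. CUL2 and COPS5, a subunit of the complex that removes NEDD8 from cullins, had 1.06 ± 0.16 and 0.69 ± 0.12, and RBX1 and NEDD8 had -0.86 ± 0.14 and -0.46 ± 0.08. Among 20 coactivators, partners and modifiers 4 were higher and 6 lower. CITED2, which competes with HIF1A for the coactivators CREBBP and EP300, had a difference of 2.09 ± 0.21. SIAH2 had -1.24 ± 0.12 and CREBBP -0.66 ± 0.13, and 1 of 5 CREBBP probe sets had a value above 0, at 0.10. Of the 28 direct targets outside the members, 8 were higher in Huh7.5.1 and 9 lower, with a median of 0.054 against 0.22 for all tested genes.

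The genes most like HIF1A, EPAS1 and EGLN3 over the 6 arrays were also listed. Likeness was the root mean square difference between signals centred on each gene's own mean, in log2 units, and it was compared over 11246 genes. Closest to HIF1A were the alanyl-tRNA synthetase AARS1 (0.028), the anion transporter SLC22A9 (0.040) and AMBP (0.054), which encodes a plasma protein precursor. For EPAS1 they were the glutathione transferase MGST3 (0.040), FAM83C (0.057) and the myosin light chain MYL12A (0.058). RAB34, a small GTPase, was closest to EGLN3 (0.076), followed by TTC38 (0.090) and the linker histone H1-10 (0.093). EGLN3 lay below the floor on every Huh7.5.1 array, so its likeness rests mostly on signals below the floor. The median distance over all genes compared was 0.57 from HIF1A, 0.41 from EPAS1 and 1.12 from EGLN3. The genes named were picked for their small distances. With 6 arrays in 3 groups this likeness describes the arrays and carries no test.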

How the data were processed

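Per the labels, biotin-labelled cRNA was made from total RNA with an in vitro transcription kit that starts at the 3′ end, and each sample was hybridised to 1 array. The deposited values are log2 signals per probe set, a scale read from their range; the submitters' processing notes name MAS5 without a version, and the sources used here do not give the rule that scaled the arrays. The 9 members and all lists were chosen with earlier results of these data known. The platform annotation named 44988 probe sets with 1 symbol, 1832 with several and 2473 with none, and 102 controls were left out. The probe set of highest mean signal over 6 arrays stood for its gene, which was tested when a group mean reached the floor, log2 6.11, the 50th percentile of all signals. Differences were fitted with limma 3.58.1 in R 4.3.3 over 11383 genes or 27836 probe sets (3 residual and 5.87 prior degrees of freedom), with an intensity trend and Benjamini-Hochberg adjustment over all of them. With 2 arrays against 2, exact permutation p-values start at 0.333, so none was used. None of the 35 member probe sets was among the 1086 with equal values in both Hep3B DMSO columns. The number of arrays limits the precision. Named genes were the members and the 3 nearest genes to HIF1A, EPAS1 and EGLN3. With CU27 up to 3 called genes per list and direction, by smallest p, were added for lists other than the cell markers. Between lines only some such genes of some lists are named. Marker genes and some list genes that were not called are also given. The fit was tested on simulated data. Settings varied were the floor, scaling, probe set choice, arrays fitted, trend, replicate block and arrays left out.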

Additional observations from a re-analysis of the deposited data

How the results depend on the processing

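Of the members, EGLN1 with CU27 and HIF1A, VHL and EGLN1 between lines kept direction and call in all settings that could test them. EGLN3 between lines did so too, but it entered the main test only through Hep3B, the group where it is high. Against the floor EGLN3 was at least 1.08-fold higher there, and its other probe sets, both below the floor, had -1.86 and 0.65. Without _x_at and _s_at probe sets, 1 member gene was called with CU27, because EGLN1 has only such probe sets, and 2 member probe sets were called with CU27 and 11 between lines, from fewer probe sets tested. With all 8 columns 5 members were called with CU27, adding HIF1A, ARNT and EGLN3, although the added columns hold no measurement of their own. Leaving out single arrays gave 1 to 2 called members and 3 to 8 called probe sets with CU27. Over all tested genes the CU27 calls, 2809 in the main fit, dropped most when DMSO replicate 2 of Huh7.5.1 was left out. They dropped less without CU27 replicate 2, DMSO replicate 1 or either Hep3B array, and rose without CU27 replicate 1. Signs turned for values that were not called and, between lines, for ARNT, which was called. EPAS1 with CU27 was -0.010 with the mean of all probe sets and ran from -0.15 to 0.19 with single arrays left out, HIF1AN with CU27 ran from -0.13 to 0.068, and HIF3A between lines from -0.22 to 0.11. ARNT between lines, called at -0.79 on the probe set used, turned to 0.066 with the mean of all probe sets. Causes were not tested. Quantile normalization gave 27.3% of genes higher and 35.1% lower between lines. Huh7.5.1 replicates share numbers, but nothing in the labels pairs them. The difference between replicates 1 and 2 in DMSO correlated at 0.31 with that in CU27 over tested probe sets. With the replicate block 2 of 7 tested members and 9 member probe sets were called, and 3525 of all genes, against 2400 in the same arrays without it.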
